A study of Mus musculus with 12 samples.

Results

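The comparison of day 11 with day 4 of treatment with an agonist antibody to CD137 covers 6 of the 12 bone marrow samples of the series, 3 at each day. Samples were chosen by the treatment day in their labels, and the readout is the 14883 of 23134 genes that reached 10 normalised counts in 3 or more of the 12 samples. All samples were total bone marrow cells of wild-type C57BL/6 mice carrying Vk12653 cells, a transplantable myeloma of the Vk*MYC model given by vein. The mice of days 4, 11 and 18 received repeated doses of 10 µg of the antibody 3H3 into the peritoneum and were at days 14, 21 and 28 after the myeloma injection. The 3 untreated samples, called day 0, were taken at day 10 after it. Neither age nor a control antibody is named, and no untreated marrow of the later days is among the samples used here, so antibody exposure and days since the myeloma injection cannot be told apart in any difference below. The labels do not say how many mice stand behind a sample, and p-values therefore measure only the spread between these samples, which may be partly technical.

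CD137, encoded by Tnfrsf9, is a costimulatory receptor of the tumour necrosis factor receptor family that T cells and natural killer cells display after activation. Its signal runs through TRAF adaptors to NF-kB and favours the survival and cytotoxic function of CD8 T cells. Activated T cells and natural killer cells release interferon gamma, which induces guanylate binding proteins, immunity-related GTPases and the machinery that loads peptides on MHC class I molecules. Immediate early genes such as Fos and Jun are transcribed soon after many stimuli without new protein synthesis.

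Estimated depth was 16 to 17.8 M reads at day 4 and 16.8 to 24.3 M at day 11, with 2189 to 2548 and 1927 to 2520 genes at 0. Abundant marrow lineages were present: 15 mature neutrophil genes summed to 1678650 to 2208039 normalised counts at day 4 and 1594890 to 2011002 at day 11, and 16 erythroid genes to 61114 to 90108 and 65736 to 68627. Skeletal muscle genes summed to 254 to 270 and 230 to 250. In RNA from whole marrow, fewer cells of a type and less RNA per cell cannot be told apart.

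Between day 4 and day 11, 6 of 8 AP-1 genes and 12 of 20 other immediate early genes fell. Of the genes that rose, 6 of 19 tested cytotoxic effector genes, 11 of 30 interferon gamma response genes and 9 of 17 genes of MHC class I presentation passed the test. Among natural killer receptor genes 4 of 11 fell and among mature B cell genes 5 of 16. With limma, 250 genes differed at an adjusted p under 0.05 (1.68% of the genes tested), of which 108 were higher at day 11 (0.726%) and 142 lower (0.954%). In all 250 the 3 samples of day 11 lay outside the range of the 3 samples of day 4, which held for 17% of all genes tested (8.8% higher, 8.16% lower). The median absolute log2 difference of the called genes was 1.02, and 49 of the higher and 79 of the lower genes differed by a log2 value of at least 1. Over all genes tested the median log2 difference was 0.004. The number called was 141 without day 4 replicate 3, 136 without day 11 replicate 1 and 147 without day 11 replicate 3, and 109 genes kept their call in each of the 12 fits that left out 1 sample. With estimated depth as a covariate 158 of the 250 kept it.

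**Figure D1:**
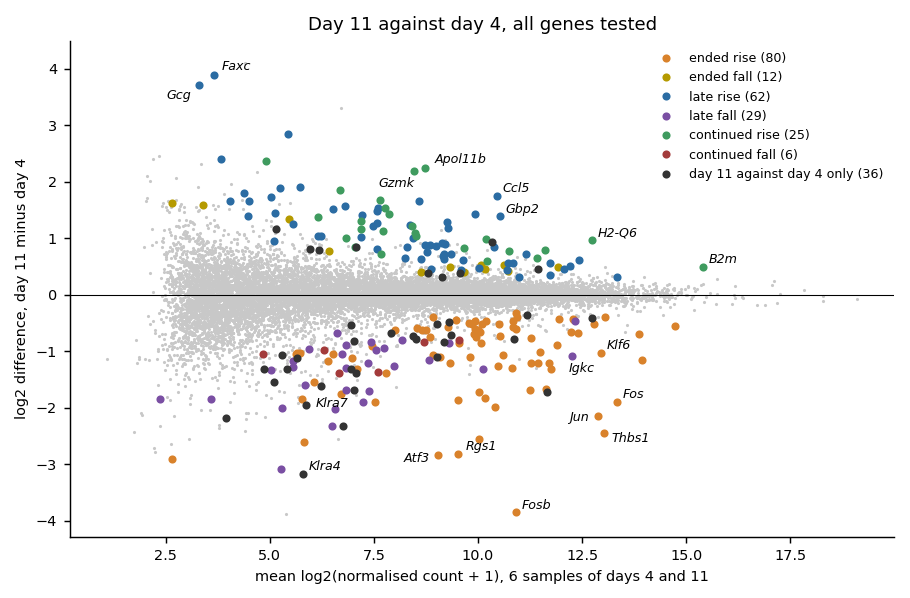
Mean log2 level over the 6 samples of days 4 and 11 (x axis) against the log2 difference, day 11 minus day 4 (y axis), for the 14883 genes tested; grey points were not called and coloured points are the 250 called genes by course. Fosb is lowest among called genes at -3.86 and Faxc highest at 3.88.

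Each called gene was placed in a course by its calls at day 4 against day 0, where 691 genes differed (4.64%), and at day 11 against day 0, where 792 did (5.32%; 476 or 3.2% higher and 316 or 2.12% lower). These comparisons share samples with the main one, so the courses are descriptions. An early rise ended in 80 genes, which were higher at day 4 than at day 0 and lower at day 11 than at day 4. Of these, 57 did not pass the test against day 0 at day 11, 21 were still higher and 2 were lower. An early fall ended in 12 genes. A late rise, called at day 11 against both earlier days and not at day 4 against day 0, was seen in 62 genes, and a late fall in 29. A further 25 genes rose in both steps and 6 fell in both, and 36 were called at day 11 against day 4 only (9 higher, 27 lower). Late does not mean absent before: 54 of the 62 late rises already had a day 4 mean above that of day 0, and 27 had an unadjusted p under 0.05 there.

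The sizes of the courses depended on single samples. Ended rises numbered 48 without day 4 replicate 3 and 53 without day 11 replicate 3. Late rises numbered 41 without day 4 replicate 2, 37 without day 11 replicate 1 and 38 without day 11 replicate 3. Late falls numbered 11 without day 4 replicate 3 or day 11 replicate 1, 19 without day 11 replicate 2, and 54 and 62 without day 18 replicates 1 and 3. Continued rises numbered 14 without day 4 replicate 3 or day 11 replicate 1 and 13 without day 11 replicate 3. Continued falls numbered 3 without any 1 sample of day 4 or 11 and 1 without day 0 replicate 2 or 3. None of the 9 genes higher at day 11 against day 4 only kept its call in all 12 fits, and their number was 0, 6 and 1 when day 11 replicates 1, 2 and 3 were left out, 3 when day 4 replicate 2 or 3 was, and 14 to 16 without day 4 replicate 1, day 18 replicate 3 or any 1 sample of day 0. The 27 lower ones became 16 and 8 without day 4 replicates 2 and 3, and 12, 14 and 10 without day 11 replicates 1, 2 and 3. Every day 4 library was shallower than every day 0 library (16 to 17.8 M against 21.6 to 25.2 M reads), so depth and day cannot be told apart in that step. With estimated depth as a covariate 67 genes were called at day 4 against day 0. There were then 38 ended rises, 1 ended fall, 6 continued rises and no continued fall. At day 11 against day 4 only, 14 genes were called higher and 66 lower.

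**Figure D2:**
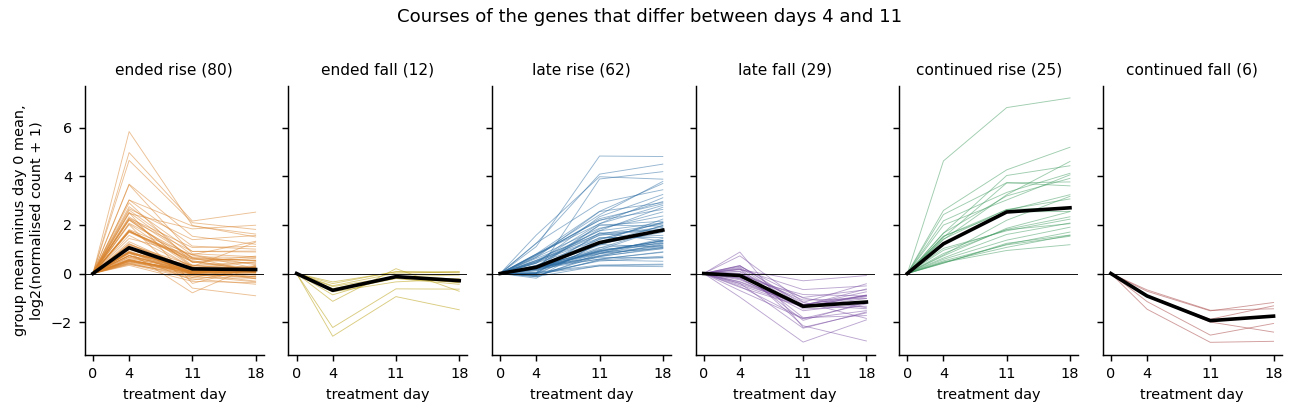
Group mean minus day 0 mean on the log2 scale (y axis) by treatment day (x axis) for the called genes of 6 courses; thin lines are genes and the thick line is their median. The median of the 80 ended rises went from 1.06 at day 4 to 0.19 at day 11, and that of the 62 late rises from 0.26 to 1.27.

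Most early changes were not called as ending. Of 357 genes higher at day 4 than at day 0 (2.4% of the genes tested), 80 ended (22.4%), 25 continued and 252 were not called between days 4 and 11, of which 133 were still called against day 0 at day 11. Among the 334 genes lower at day 4 (2.24%), 12 ended (3.6%), 6 continued and 316 were not called, with 101 still called against day 0. A gene that was not called between days 4 and 11 is not shown to have stayed level.

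Subunits of the transcription factor AP-1 fell steeply. Of 8 tested AP-1 genes 6 fell and none rose, with a median log2 difference of -1.81 over the 8. The fall was partial: against day 0, 6 of the 8 were called higher at day 11 (3.2% of all genes tested). The median log2 difference of the 8 from day 0 was then 0.69. Fos (ENSMUSG00000021250.13, chromosome 12, 85473890 to 85477273, plus strand, GRCm38), which pairs with Jun proteins in AP-1, had 17654, 18879 and 23717 normalised counts in the day 4 samples and 5787, 6902 and 3820 at day 11. Every day 4 value was above every day 11 value, a log2 difference of -1.90 ± 0.25 (SE, limma adjusted p = 0.00109). Its day 11 level was still above the 1887, 2096 and 3702 of untreated marrow (log2 difference 1.13, adjusted p = 0.0169).

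Fosb, a relative of Fos, was at 5725, 7744 and 9021 at day 4 and at 573, 461 and 496 at day 11. The groups lay far apart, and the log2 difference of -3.86 ± 0.48 was the largest fall among called genes (adjusted p = 0.000857). Jun went from 15636, 14593 and 17179 to 3647, 4251 and 2936, a log2 difference of -2.14 ± 0.25 (adjusted p = 0.000487). Atf3, a stress-induced factor that dimerises with Jun proteins, went from 1490, 1035 and 1823 to 194, 204 and 193, with the 3 day 11 samples close together (log2 difference -2.84 ± 0.19, adjusted p = 1.07e-05). Jund fell by 1.72 and Maff by 1.03 on the log2 scale. Fosl2, with a log2 difference of -0.16, and Batf, which works with AP-1 in lymphocytes, at 0.17, were not called. Maff held its call in 10 of the 12 fits without 1 sample (adjusted p = 0.0836 without day 4 replicate 3), and the other 5 in all 12. The summed level of the 8 genes was 7525 to 10923 at day 0, 46380 to 57899 at day 4 and 11662 to 16585 at day 11.

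Among 20 other immediate early genes 12 fell and none rose, with a median log2 difference of -0.66. Against day 0, 9 of the 20 were called higher at day 11 and 1 lower, with a median of 0.23. Rgs1, a regulator that dampens chemokine receptor signals, went from 1774, 1995 and 2083 to 306, 243 and 283 normalised counts (log2 difference -2.81 ± 0.23, adjusted p = 2.1e-05). All 3 samples of day 11 were still above the 36, 81 and 78 of day 0. Egr1, a zinc finger transcription factor, was 3.57-fold lower, from 1921, 2052 and 2622 to 652, 696 and 497 (adjusted p = 0.00113). Klf6, a Kruppel-like transcription factor, was at 5872, 5084 and 5749 at day 0, 11564, 10892 and 11652 at day 4 and 5343, 5743 and 5662 at day 11, so that day 11 overlapped day 0. Its relative Klf2 fell by 1.21 on the log2 scale and the mRNA-decay factor Zfp36 by 1.16. Ier3, Ier5, Dusp2, Ppp1r15a, Btg2, Csrnp1 and Nr4a1 were the other 7 that fell, by 0.51 to 1.11. Nr4a1 held its call in 7 of the 12 fits without 1 sample (adjusted p = 0.174 without day 11 replicate 1) and Csrnp1 in 8 (0.0745 without day 11 replicate 3).

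Nuclear receptor relatives of Nr4a1, which T cell receptor signals induce, were not called: Nr4a2 was at 176, 124 and 186 on day 4 and 235, 147 and 284 on day 11 (adjusted p = 0.491), and Nr4a3 at 117, 90 and 109 and then 82, 69 and 85 (adjusted p = 0.531). With limma none of 10 cytosolic heat shock genes was called between days 4 and 11, and their median log2 difference was -0.03. Against day 0, 6 of the 10 were called higher at day 4 (2.4% of all genes tested) and 3 at day 11 (3.2%). The labels give no hour of collection and no time from dissection to lysis, and their part in these differences was not tested.

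**Figure D3:**
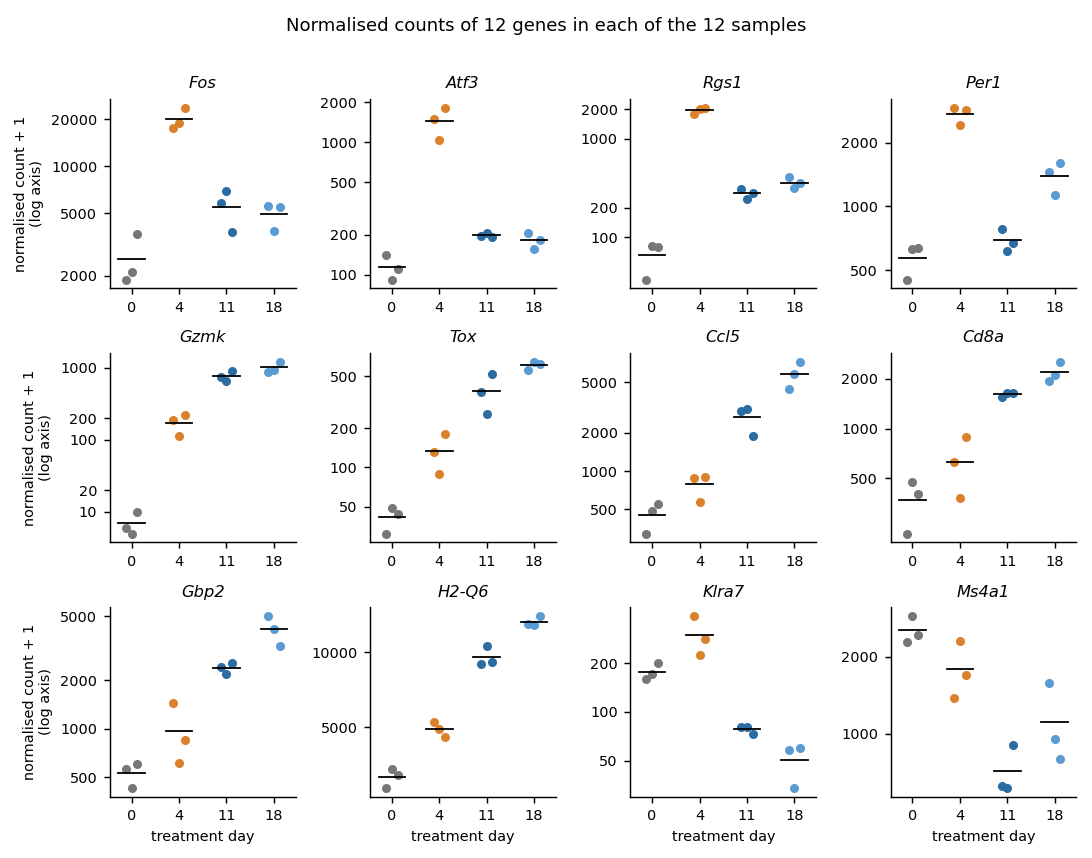
Normalised counts plus 1 (log y axis) of 12 genes in each sample, by treatment day (x axis); points are samples and the bar is the mean of the 3 samples of a day. Fos, Atf3, Rgs1 and Per1 are highest at day 4, Gzmk, Tox, Ccl5, Cd8a, Gbp2 and H2-Q6 are higher in every day 11 than in every day 4 sample, and Klra7 and Ms4a1 are lower.

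Some feedback inhibitors of NF-kB and some inflammatory mediators fell as well. Of 14 genes of NF-kB subunits and feedback 3 fell, all of them inhibitors or regulators, and none rose. The median log2 difference of the 14 was -0.05, and 6 of them were above 0. Tnfaip3, a ubiquitin-editing enzyme, went from 2599, 2572 and 3335 to 1208, 1091 and 1142 (log2 difference -1.30 ± 0.12, adjusted p = 4.11e-05). Nfkbia, which holds NF-kB in the cytoplasm, went from 4596, 3416 and 4403 to 2046, 1962 and 2094 (log2 difference -1.01 ± 0.13, adjusted p = 0.00108), and Nfkbid, a nuclear relative of it, fell by 0.60. The subunit genes Nfkb1, Rel and Relb had log2 differences of 0.07, -0.27 and -0.31 and were not called.

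Of 15 inflammatory cytokines and chemokines 4 fell and none rose, with a median of -0.54. Against day 0, 6 of the 15 were called higher at day 11 and none lower, with a median of 0.82. The neutrophil chemokine gene Cxcl2 fell 5.9-fold, from 2294, 1704 and 4182 to 456, 465 and 374 (adjusted p = 0.00103). Osm, a cytokine of the interleukin 6 family, fell by 1.20 on the log2 scale, Il6 by 1.04 and the chemokine gene Ccl3 by 0.63. Ccl3 at day 11, with 938, 771 and 783, was above the 198, 224 and 279 of day 0 in every sample. Ccl2, at 102, 103 and 140 and then 40, 62 and 29, and Ccl4, at 729, 555 and 606 and then 466, 409 and 415, did not overlap between the days and were not called (adjusted p = 0.0758 and 0.241). Il1b and Tnf overlapped. Il6 and Ccl3 each kept their call in 8 of 12 fits without 1 sample, with adjusted p of 0.112 without day 11 replicate 1 and 0.105 without day 11 replicate 3.

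Promoters of 4 ended rises that differ in function are shown, and all 4 hold a marked match. An NF-kB site or the cAMP response element was found in a minority of ended rises, as counted below. The 4 therefore do not stand for their course. Each line gives 150 bases before the RefSeq start (GRCm38.p6, gene strand, 5′ to 3′), with an NF-kB site or the cAMP response element TGACGTCA in capitals. The windows were chr5:90903749-90903898 (plus strand) for Cxcl2, chr12:55492648-55492797 (minus strand) for Nfkbia, chr13:110394894-110395043 (plus strand) for Plk2 and chr7:45526269-45526418 (minus strand) for Ppp1r15a.
Cxcl2: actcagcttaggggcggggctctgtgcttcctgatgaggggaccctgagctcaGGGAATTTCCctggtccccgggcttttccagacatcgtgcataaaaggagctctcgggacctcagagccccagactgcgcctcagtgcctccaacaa
Nfkbia: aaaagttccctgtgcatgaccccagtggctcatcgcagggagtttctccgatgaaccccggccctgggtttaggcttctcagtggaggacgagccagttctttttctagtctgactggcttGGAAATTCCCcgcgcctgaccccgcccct
Plk2: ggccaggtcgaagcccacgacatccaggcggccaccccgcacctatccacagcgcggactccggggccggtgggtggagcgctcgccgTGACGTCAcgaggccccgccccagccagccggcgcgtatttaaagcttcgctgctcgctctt
Ppp1r15a: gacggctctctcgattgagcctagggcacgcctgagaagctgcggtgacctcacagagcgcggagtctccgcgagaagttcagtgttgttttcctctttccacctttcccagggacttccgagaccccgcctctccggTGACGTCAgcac
The sites stand 97 to 88 bases before the start in Cxcl2, 29 to 20 in Nfkbia, 62 to 55 in Plk2 and 12 to 5 in Ppp1r15a. On both strands of the 250 bases before the start, the cAMP response element matched in 5 of 54 ended rises with a window (9.26%) and in 2.67% of the 7990 tested genes with one. An NF-kB site matched in 6 of 54 ended rises (11.1%) and 5.77% of tested genes, but also in 3 of 9 late falls (33.3%), 2 of 12 continued rises (16.7%), 1 of 5 continued falls (20%) and 3 of 39 late rises (7.69%). The CArG box matched in 2 of 54 (3.7%) and 1.14%, and the AP-1 site TGANTCA in 2 of 54 (3.7%) and 4.39%. A match is a run of letters and does not show that a factor bound there.

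Other ended rises lay outside those lists. Per1, a repressor of the circadian clock, went from 2926, 2413 and 2851 to 781, 617 and 672 (log2 difference -1.98 ± 0.15, adjusted p = 1.16e-05), beside 450, 626 and 636 at day 0. Thbs1, which encodes the matrix protein thrombospondin, fell 5.48-fold, from 13336, 25278 and 22242 to 2898, 4191 and 3751. Plk2, a stress-responsive kinase gene, fell 3.73-fold, and Trib1, a pseudokinase gene, 3.21-fold. Cd69, an early activation marker of lymphocytes, went from 1089, 1488 and 1736 to 454, 327 and 386, with no overlap (log2 difference -1.87 ± 0.16, adjusted p = 3.13e-05). Xcl1, a chemokine gene of lymphocytes, was at 138, 74 and 104 and then 32, 30 and 22, and kept its call in 3 of 12 fits without 1 sample (adjusted p = 0.187 without day 11 replicate 3).

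Dnajb9, a chaperone of the endoplasmic reticulum, went from 1393, 1404 and 1539 to 837, 822 and 749 (log2 difference -0.85 ± 0.08, adjusted p = 7.56e-05). It was 1 of 3 members of the 16 secretory and unfolded protein response genes that fell. The others were Atf4, the translation-controlled stress factor, at -0.45 and Herpud1, a degradation factor of the same compartment, at -0.36. The median log2 difference of the 16 was 0.03, and 9 of them were above 0. With quantile normalisation, without an intensity trend or with the depth covariate 1 member was called lower. Atf4 and Herpud1 each held their call in 4 of 12 fits without 1 sample, with adjusted p of 0.165 without day 11 replicate 3 and 0.194 without day 4 replicate 3. Tsc22d3, a glucocorticoid-induced gene, went below its starting level, with 2149, 4085 and 3397 at day 0, 6108, 4808 and 6275 at day 4 and 1691, 1820 and 1860 at day 11 (log2 difference -1.67 ± 0.20 between days 4 and 11, adjusted p = 0.000557).

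Some transcripts of cytotoxic effector cells rose. Of 19 cytotoxic effector genes 6 were higher at day 11 than at day 4 and none was lower, with a median log2 difference of 0.59. Gzmk (ENSMUSG00000042385.14, chromosome 13, 113171608 to 113225908, minus strand, GRCm38), a granzyme of memory-like and exhausted CD8 T cells, had 5, 4 and 9 normalised counts at day 0, 185, 111 and 216 at day 4 and 750, 650 and 883 at day 11. Each day lay above the one before without overlap, and the fold over day 4 was 4.57 (log2 difference 2.19 ± 0.26, adjusted p = 0.000655). Ccl5, a chemokine stored by effector T cells, was at 876, 571 and 902 and then at 2942, 3098 and 1897 (log2 difference 1.75 ± 0.24, adjusted p = 0.00139). Fasl, the ligand of the death receptor Fas, rose 2.88-fold, from 59, 33 and 77 to 133, 141 and 198 (adjusted p = 0.00558).

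Gzmb, the granzyme of armed effector cells, was at 242, 103 and 391 and then at 664, 516 and 894 (log2 difference 1.65 ± 0.34, adjusted p = 0.0234), and its call was lost without day 11 replicate 1 or 3 (adjusted p = 0.0876 and 0.122). Klrg1, a receptor of effector cells, rose 2.48-fold and the granule protein gene Nkg7 1.58-fold. Klrg1 held its call in 9 of 12 fits (adjusted p = 0.0693 without day 11 replicate 3), and Nkg7 lost it without day 11 replicate 1 or 3 (0.0701 and 0.0511). Ifng, at 25, 34 and 34 and then 49, 51 and 52, and the perforin gene Prf1, at 280, 102 and 304 and then 348, 360 and 439, did not overlap between the days and were not called (adjusted p = 0.312 and 0.208). Gzma, which natural killer cells also express, was at 422, 252 and 386 and then at 177, 255 and 202 (adjusted p = 0.318). Without day 11 replicate 1 or 3 the list had 3 higher members.

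Inhibitory receptors and nuclear factors of repeatedly stimulated T cells also rose. Of 14 activation and checkpoint genes 6 rose and none fell, with a median of 0.47. Pdcd1, the gene of the receptor PD-1, was at 17, 22 and 15 at day 0, 125, 71 and 159 at day 4 and 360, 279 and 461 at day 11 (log2 difference 1.67 ± 0.26 between days 4 and 11, adjusted p = 0.00402). Tox, a nuclear factor of exhausted T cells, went from 130, 88 and 181 to 379, 257 and 517 (log2 difference 1.53 ± 0.27, adjusted p = 0.00775). Its relative Tox2 was at 27, 31 and 22 at day 4, overlapping the 29, 14 and 18 of day 0, and at 108, 89 and 111 at day 11 (log2 difference 1.91 ± 0.25, adjusted p = 0.0011). Lag3, an inhibitory receptor that binds MHC class II, went from 403, 340 and 392 to 700, 625 and 739 (log2 difference 0.86 ± 0.11, adjusted p = 0.000808) and to 1187, 1225 and 1357 at day 18. It was the only gene of the 14883 called between days 11 and 18 (log2 difference 0.87, adjusted p = 0.0168, 0.00672% of the genes tested).

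Havcr2, the gene of TIM-3, was at 130, 63 and 174 and then at 292, 248 and 488 (log2 difference 1.53 ± 0.32, adjusted p = 0.0233), and lost its call without day 4 replicate 2, day 11 replicate 1 or day 11 replicate 3 (adjusted p = 0.0615, 0.0657 and 0.118). Cd27, a costimulatory receptor, rose 1.56-fold, and its call held in 8 of 12 fits without 1 sample (adjusted p = 0.084 without day 11 replicate 3). Tnfrsf9, the gene of the antibody's target, had 31, 32 and 45 at day 0, 239, 152 and 280 at day 4 and 240, 144 and 346 at day 11. Days 4 and 11 overlapped, with a log2 difference of 0.08 ± 0.28 (adjusted p = 0.97). Ctla4, an inhibitory receptor gene at 102, 87 and 204 and then 110, 97 and 114, also overlapped.

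Genes of the T cell receptor complex and its signalling leaned upward. All 19 tested T cell core genes had a log2 difference above 0, against 7606 of 14883 genes tested, and their median was 0.87, but 5 passed the test. Members of a list were measured in the same samples and are not independent, so such a count of signs is no test in any list. None of 16 erythroid genes was above 0, for example, and none of them was called. Cd3g, a chain of the CD3 complex, went from 469, 287 and 514 to 971, 882 and 961 (log2 difference 1.19 ± 0.21, adjusted p = 0.00761). Cd8a was at 625, 379 and 887 and then at 1551, 1640 and 1639 (log2 difference 1.44 ± 0.27, adjusted p = 0.013), and Cd8b1, the other chain of the CD8 coreceptor, at 429, 237 and 576 and then at 905, 1013 and 916 (log2 difference 1.28 ± 0.26, adjusted p = 0.0225). In both, day 4 replicate 2 was the lowest sample of days 4 and 11, and the 3 samples of day 11 were near each other. The costimulatory receptor gene Cd28 rose 1.88-fold and Bcl11b, a T lineage transcription factor, 2.35-fold. The helper coreceptor gene Cd4 overlapped, at 669, 626 and 666 and then 874, 651 and 983 (adjusted p = 0.409). Trac, Cd3e, Cd3d, Zap70, Lat and Thy1 did not overlap between the days, with log2 differences of 0.76 to 1.15, and had adjusted p of 0.0509 to 0.0783.

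These calls rested on few samples. Cd3g kept its call in all 12 fits without 1 sample. The call of Cd8a was lost without each day 11 sample in turn (adjusted p = 0.0504 to 0.0567), that of Cd8b1 also without day 4 replicate 2 (0.0504 to 0.0831), that of Bcl11b without day 11 replicate 2 or 3 (0.0518 and 0.0532), and that of Cd28 in 4 fits (0.138 without day 11 replicate 3). The number of called T cell core genes was 3 without day 4 replicate 2, 2 without day 11 replicate 1 and 1 without day 11 replicate 2 or 3, while it was 12 without day 0 replicate 1 and 11 without day 18 replicate 3. It was 0 without an intensity trend and 2 with a robust prior, while it was 10 with the samples of days 4 and 11 alone, 11 with the depth covariate and 12 with sample weights.

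Of 12 memory, naive and homing genes of T cells 2 rose and 2 fell. Cxcr6, a tissue-homing receptor, went from 89, 105 and 153 to 304, 387 and 270 with no overlap (log2 difference 1.48 ± 0.20, adjusted p = 0.0011). Cxcr3, a receptor for interferon-induced chemokines, rose 1.8-fold with a call that held in 6 of 12 fits (adjusted p = 0.142 without day 11 replicate 2). Ccr7, which guides naive T cells and B cells into lymphoid tissue, went from 263, 300 and 324 to 146, 142 and 174 (log2 difference -0.94 ± 0.18, adjusted p = 0.013), a call lost without day 4 replicate 3 or day 11 replicate 1 or 2 (adjusted p = 0.057 to 0.0693). Cd69, described above, was the other fall.

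The interferon gamma response rose in part. Of 30 response genes 11 rose and none fell, and 27 had a log2 difference above 0, with a median of 0.52. Gbp2, a guanylate binding protein that acts against intracellular pathogens, was at 559, 427 and 601 at day 0, 1451, 610 and 852 at day 4 and 2414, 2173 and 2566 at day 11. Day 4 replicate 1 was the highest of its group and still below every day 11 sample (log2 difference 1.38 ± 0.24, adjusted p = 0.00775). The immunity-related GTPase gene Tgtp1 rose 2.69-fold, from 186, 118 and 128 to 333, 358 and 465 (adjusted p = 0.000835), and its near copy Tgtp2 1.99-fold, where reads may be shared between the copies. Irf1, a transcription factor that carries the signal on, went from 3118, 2662 and 2586 to 4246, 3964 and 4108 (log2 difference 0.56 ± 0.08, adjusted p = 0.00183).

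Cxcl9, a chemokine that attracts CXCR3-bearing T cells, was at 355, 158 and 258 and then at 548, 432 and 606 (adjusted p = 0.0457, and 0.186 without day 11 replicate 3), and held its call in 6 of 12 fits. Gbp3, Gbp6, Ifi47, Igtp, Irgm2 and Nlrc5 were the other members that rose, by 0.57 to 1.13 on the log2 scale. Irgm2 lost its call without day 4 replicate 2 or 3 or day 11 replicate 1 or 3 (adjusted p = 0.0621 to 0.0734), and Igtp and Gbp3 held theirs in 9 of 12 fits (0.0647 without day 4 replicate 3 and 0.0603 without day 11 replicate 3). The chemokine gene Cxcl10 had a log2 difference of 0.50 and was not called (adjusted p = 0.54). The number of called members was 7 without day 4 replicate 3, day 11 replicate 1 or day 11 replicate 3. Of 21 genes of the type I interferon response none was called in limma, with a median log2 difference of 0.1, and the difference between the lists was not tested.

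Genes of MHC class I presentation rose by smaller factors. Of 17 genes 9 rose and none fell, and all 17 had a log2 difference above 0, with a median of 0.37. H2-Q6 (ENSMUSG00000073409.12, chromosome 17, 35424850 to 35430055, plus strand, GRCm38), a nonclassical class I chain, was at 5241, 4889 and 4555 and then at 8965, 10632 and 9162 (log2 difference 0.97 ± 0.09, adjusted p = 4.11e-05). Reads of near-identical class I genes may be shared between them. Nlrc5, the transactivator of class I genes, went from 2552, 2261 and 2316 to 4125, 4013 and 4150, with no overlap (log2 difference 0.79 ± 0.11, adjusted p = 0.00219). The class I chain genes H2-T22 and H2-M3 rose by 0.72 and 0.62 on the log2 scale, the peptide transporter gene Tap1 by 0.62, the peptide editor gene Tapbpl by 0.47, and the proteasome genes Psmb10 and Psme2 by 0.44 and 0.34. B2m, the light chain of class I molecules, was at 41507, 34217 and 35253 and then at 51153, 54308 and 49763 (log2 difference 0.49 ± 0.10, adjusted p = 0.018). B2m and Psme2 each held their call in 7 of 12 fits without 1 sample (adjusted p = 0.105 and 0.154 without day 4 replicate 3), and Tapbpl in 11 (0.055 without day 11 replicate 1). The number of called members was 6 without day 11 replicate 1. Of 13 listed genes of MHC class II presentation 3 were among the deposited genes and tested, and none of these was called in limma. The others could not be examined. The class II transactivator gene Ciita had a log2 difference of -0.03.

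Promoters of 5 genes that rose from day 4 to day 11 are printed beside those of the ended rises, again as 150 bases before the RefSeq start on the gene strand of GRCm38.p6. Capitals mark the interferon stimulated response element (GAAA, any 2 bases, GAAA) or its reverse complement, the interferon gamma activated site TTCNNNGAA, the AP-1 site TGANTCA in Gbp2 and an NF-kB site in B2m. The windows were chr11:48992247-48992396 (minus strand) for Tgtp1, chr11:58199406-58199555 (plus strand) for Igtp, chr3:142620513-142620662 (plus strand) for Gbp2, chr15:77643287-77643436 (minus strand) for Apol11b and chr2:122147537-122147686 (plus strand) for B2m.
Tgtp1: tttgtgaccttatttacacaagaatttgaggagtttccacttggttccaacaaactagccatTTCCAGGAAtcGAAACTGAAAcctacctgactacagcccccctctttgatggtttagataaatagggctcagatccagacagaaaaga
Igtp: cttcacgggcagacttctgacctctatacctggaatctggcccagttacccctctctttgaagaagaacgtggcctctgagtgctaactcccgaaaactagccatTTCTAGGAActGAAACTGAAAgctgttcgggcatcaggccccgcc
Gbp2: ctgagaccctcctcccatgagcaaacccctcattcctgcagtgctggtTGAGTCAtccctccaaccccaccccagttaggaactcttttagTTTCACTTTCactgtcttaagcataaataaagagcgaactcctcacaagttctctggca
Apol11b: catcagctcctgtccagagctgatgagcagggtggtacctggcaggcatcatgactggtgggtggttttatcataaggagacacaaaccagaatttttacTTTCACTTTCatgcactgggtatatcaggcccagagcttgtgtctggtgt
B2m: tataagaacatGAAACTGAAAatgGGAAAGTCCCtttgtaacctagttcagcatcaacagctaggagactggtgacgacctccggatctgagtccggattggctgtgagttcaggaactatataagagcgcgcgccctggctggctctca
In Tgtp1 the gamma activated site stands 88 to 80 and the stimulated response element 77 to 68 bases before the start, and in Igtp they stand at 45 to 37 and 34 to 25. The stimulated response element matched in 7 of 39 late rises with a window of 250 bases (17.9%) and 4 of 12 continued rises (33.3%), beside 3 of 54 ended rises (5.56%) and 3.05% of the 7990 tested genes with a window. The gamma activated site matched in 6 of 39 late rises (15.4%), 4 of 12 continued rises (33.3%), 4 of 54 ended rises (7.41%) and 6.3% of tested genes. It also matched in 1 of 9 late falls (11.1%) and 1 of 5 continued falls (20%), and in none of 8 ended falls. The AP-1 site matched in 6 of 39 late rises (15.4%), 1 of 9 late falls (11.1%), none of 12 continued rises and 4.39% of tested genes. These are shares of letters on either strand, with no test. All 5 promoters printed here hold the stimulated response element, so they do not stand for all late and continued rises.

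The largest rises were in genes of low level outside the pathways above. Faxc, a gene named for a fly axon factor, was at 5, 0 and 5 normalised counts at day 4 and at 47, 38 and 61 at day 11 (log2 difference 3.88 ± 0.56, adjusted p = 0.00213). Gcg, which encodes proglucagon and is best known from pancreas and gut, was at 1, 1 and 4 and then at 42, 12 and 81 (log2 difference 3.72 ± 0.61, adjusted p = 0.00551). Its 3 day 11 samples differed widely from each other, and all were above every sample of days 0 and 4. Tmprss13, a membrane serine protease gene, went from 14, 9 and 14 to 55, 85 and 64 (adjusted p = 0.00108). Wdr95 went from 26, 9 and 28 to 77, 86 and 57 and lost its call without day 11 replicate 1 or 2 (adjusted p = 0.0705 and 0.0684), and Mrc2, an endocytic collagen receptor gene, from 12, 8 and 17 to 48, 22 and 58 with a call that held in 4 of 12 fits (0.195 without day 11 replicate 3).

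Of 9 tested apolipoprotein L genes, a group picked after its values were seen, 4 rose and none fell. Apol11b (ENSMUSG00000091694.9, chromosome 15, 77633946 to 77643286, minus strand, GRCm38) was at 50, 82 and 81 at day 0, 160, 200 and 234 at day 4 and 1218, 779 and 839 at day 11, with no overlap between days (log2 difference 2.24 ± 0.23, adjusted p = 0.000162). Apol11a, its near copy with which reads may be shared, went from 14, 21 and 12 to 202, 80 and 97 (adjusted p = 0.00123). Day 11 replicate 1 was the highest sample of days 4 and 11 in both.

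Natural killer receptor transcripts were lower at day 11. All 11 tested members of the list had a log2 difference below 0, with a median of -1.78, and 4 fell by the test. The summed level of the list was 1388 to 1782 at day 0, 1403 to 2751 at day 4 and 554 to 804 at day 11. Klra7 (ENSMUSG00000067599.13, chromosome 6, 130218605 to 130233322, minus strand, GRCm38), a receptor of the Ly49 family that binds MHC class I, was at 158, 171 and 200 at day 0, 389, 224 and 282 at day 4 and 80, 80 and 72 at day 11. Every day 11 sample was below every earlier sample (log2 difference -1.90 ± 0.23 between days 4 and 11, adjusted p = 0.000599). Klri2, a lectin-like receptor gene, went from 285, 111 and 218 to 56, 44 and 39 (log2 difference -2.03 ± 0.35, adjusted p = 0.00686). Klra4, an activating Ly49 receptor gene, was at 204, 112 and 198 and then at 25, 26 and 8 (log2 difference -3.17 ± 0.72, adjusted p = 0.0427), and Klra3, another Ly49 gene, at 70, 41 and 66 and then at 29, 18 and 13 (adjusted p = 0.0156). Klra4 kept its call in 3 and Klra3 in 8 of the 12 fits without 1 sample, with adjusted p of up to 0.187 without day 11 replicate 3 and 0.0818 without day 4 replicate 3, while Klra7 and Klri2 held theirs in all 12.

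The receptor genes that define natural killer cells did not pass. Ncr1, the gene of NKp46, was at 372, 163 and 250 and then at 71, 84 and 61 (adjusted p = 0.0719), and Klrb1c, the gene of NK1.1, at 249, 171 and 183 and then at 94, 106 and 58 (adjusted p = 0.105). In neither did the days overlap, and day 4 replicate 2 was the lowest day 4 sample in both. Klra8, an activating Ly49 receptor gene at 239, 87 and 200 and then 21, 11 and 4, had a log2 difference of -3.88 ± 0.95 (adjusted p = 0.0606). Among all genes whose symbol starts with Klra, a group picked after its values were seen, 12 of 13 tested had a log2 difference below 0 and 6 fell. Klra1 of this group went from 100, 89 and 108 to 33, 34 and 29 (adjusted p = 0.00245). Klra2, the exception, which myeloid cells express, was at 1652, 1040 and 1223 and then at 1511, 1719 and 1531 (adjusted p = 0.43). Klra5, at 27, 10 and 13 and then 8, 16 and 6, also overlapped between the days. So did Klra17, at 366, 325 and 295 and then 340, 292 and 264. Klrc2, an activating partner of CD94, fell by 1.31 on the log2 scale. Ly49 genes share long stretches of sequence, so their counts may be partly shared. Without day 4 replicate 1 or 3 or day 11 replicate 2 or 3 the list had 2 lower members, and without day 18 replicates 1, 2 and 3 it had 6, 9 and 7.

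**Figure D4:**
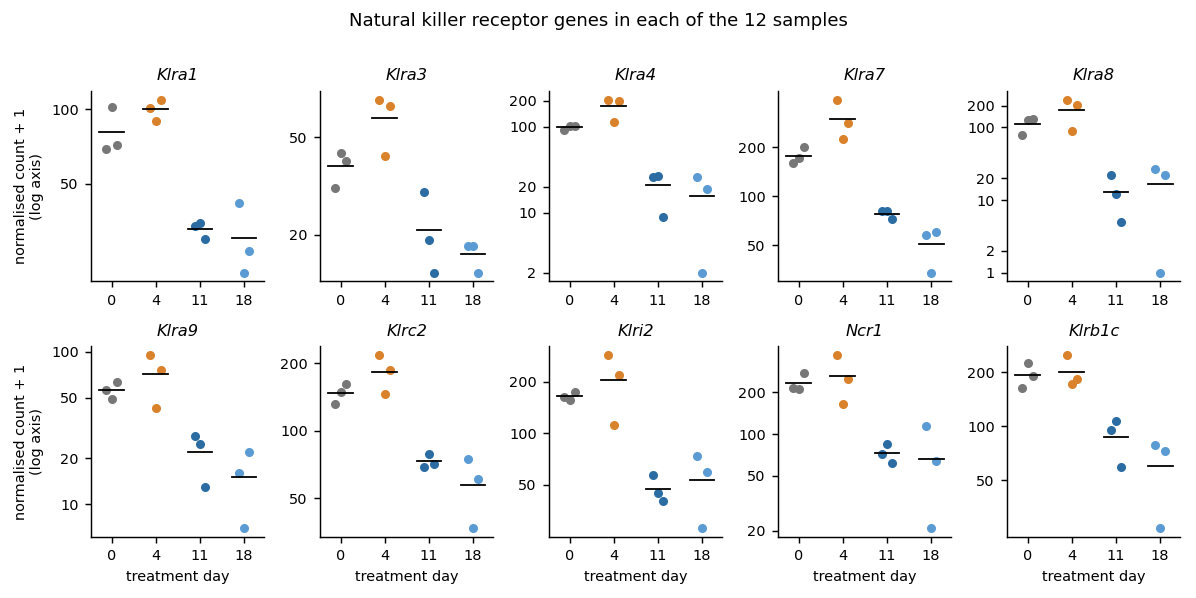
Normalised counts plus 1 (log y axis, scaled for each gene) of 10 natural killer receptor genes in each sample by treatment day (x axis); points are samples and bars are means of 3. In each of the 10 genes the 3 day 11 samples lie below the 3 day 4 samples, as in 8.16% of all genes tested. The 10 were picked and do not stand for the family: Klra2, Klra5 and Klra17, not shown, overlapped between the days.

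Some mature B cell transcripts fell. Of 16 genes 5 fell and none rose, with a median of -0.65, and 1 had a log2 difference above 0. Fcer2a (ENSMUSG00000005540.10, chromosome 8, 3681737 to 3694175, minus strand, GRCm38), which encodes a low-affinity receptor for IgE, fell in both steps, with 589, 1057 and 991 at day 0, 271, 324 and 331 at day 4 and 123, 92 and 149 at day 11 (log2 difference -1.36 ± 0.24 between days 4 and 11, adjusted p = 0.00739). Bank1, a scaffold of B cell receptor signalling, went the same way, with 480, 591 and 609 at day 4 and 297, 297 and 341 at day 11 (adjusted p = 0.00421). Ms4a1, the gene of CD20, went from 1378, 2305 and 1698 to 625, 614 and 906 (log2 difference -1.32 ± 0.23, adjusted p = 0.0087), a call lost without day 11 replicate 1 (0.0542). The IgM Fc receptor gene Fcmr and the inhibitory coreceptor gene Cd22 fell by 1.16 and 0.81, with calls that held in 8 and 6 of 12 fits (adjusted p = 0.0925 without day 11 replicate 1 and 0.199 without day 4 replicate 2). Pax5, the B lineage factor, had a log2 difference of -0.55 and was not called (adjusted p = 0.224). The summed level of the list was 39577 to 61128 at day 4 and 31529 to 39072 at day 11. Without 1 sample the number of called members ran from 2 (day 11 replicate 1) to 10 (day 4 replicate 1), and it was 3 without day 4 replicate 2 or 3 or day 11 replicate 2. None of 9 tested B cell precursor genes was called in limma.

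Immunoglobulin transcripts, a group picked after its values were seen, fell in 14 of 192 tested genes and rose in none, with 174 of the 192 at a log2 difference below 0 and a median of -0.90. Igha, the IgA heavy chain gene, was at 5734, 4764 and 7481 and then at 2515, 1557 and 1456 (log2 difference -1.72 ± 0.31, adjusted p = 0.0108). Igkc, the kappa light chain gene, went from 7880, 5921 and 7958 to 3118, 2715 and 4591 (log2 difference -1.09 ± 0.23, adjusted p = 0.0256). Ighg2c, an IgG heavy chain gene, was at 311, 283 and 312 and then at 109, 54 and 129 (adjusted p = 0.0207), while the IgM gene Ighm overlapped (adjusted p = 0.447). Variable segments made up 9 of the 14. Igha lost its call without day 4 replicate 3 or day 11 replicate 2 or 3 (adjusted p = 0.052 to 0.0643), Igkc held its call in 8 of 12 fits (0.119 without day 4 replicate 3) and Ighg2c in 7 (0.0813 without day 4 replicate 3).

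Of 11 plasma cell and myeloma genes none fell and 1 rose. This was Prdm1, a factor of plasma cells and of effector T cells, at 103, 73 and 139 and then 183, 180 and 268 (adjusted p = 0.0316). Its call was lost without day 4 replicate 1 or 2 or without each day 11 sample in turn (limma adjusted p = 0.054 to 0.16). It was also lost without an intensity trend and with the depth covariate. Jchain, which joins secreted IgA and IgM, was at 3107, 2425 and 3699 and then at 1304, 872 and 2269 (adjusted p = 0.132), and Sdc1, the gene of the plasma cell marker CD138, at 357, 360 and 351 and then at 251, 310 and 237 (adjusted p = 0.317). T cell core genes summed to 6814 to 10995 normalised counts at day 4 and 15767 to 17437 at day 11, in the same samples in which the natural killer and B cell sums were lower, and the part of cell numbers in these results was not tested.

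Ended falls were few. Il6st, the shared signalling chain of interleukin 6 family receptors, was at 2325, 2028 and 2198 at day 0, 1426, 1201 and 1334 at day 4 and 1811, 1939 and 1916 at day 11 (log2 difference 0.52 ± 0.11 between days 4 and 11, adjusted p = 0.0216). Bcl6, a transcriptional repressor of germinal centre cells, went from 1632, 1439 and 1553 through 1143, 913 and 894 to 1242, 1508 and 1289 (adjusted p = 0.0321). Lfng, a modifier of Notch receptors, Dusp7, a phosphatase of MAP kinases, Tifab, a regulator of TRAF6 signalling, and Tor4a rose back by 0.41 to 0.52 on the log2 scale. The calls of these 6 genes held in 6 to 9 of the 12 fits. The number of ended falls ran from 1 without day 11 replicate 1 or 2 to 30 without day 18 replicate 3. With estimated depth as a covariate it was 1, and 4 of the 12 ended falls kept their call between days 4 and 11.

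Genes called between days 4 and 11 but at neither day against day 0 included Ephb2, Gdf11 and Susd2 among the higher. Adamts14, Irs1, Ddit4 and Mrc1 were among the lower. Irs1 lost its call in several fits without 1 sample (limma adjusted p of up to 0.155, without day 4 replicate 2). Ddit4 held its call in 6 of 12 (0.15 without day 4 replicate 3). Adamts14, a procollagen protease gene, was at 285, 145 and 250 and then at 90, 74 and 85 (adjusted p = 0.00739) and held its call in all 12 fits. Mrc1, the mannose receptor gene of macrophages, at 661, 877 and 806 and then 381, 516 and 410 (adjusted p = 0.0458), held its call in 7 (0.189 without day 11 replicate 1) and was the 1 of 17 resident macrophage genes that fell. In stroma and osteoblast genes 1 of 11 fell, Kitl, the stem cell factor gene, from 66, 70 and 84 to 26, 28 and 35 (adjusted p = 0.0207), with a call that held in 8 fits (0.102 without day 4 replicate 3).

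**Figure D5:**
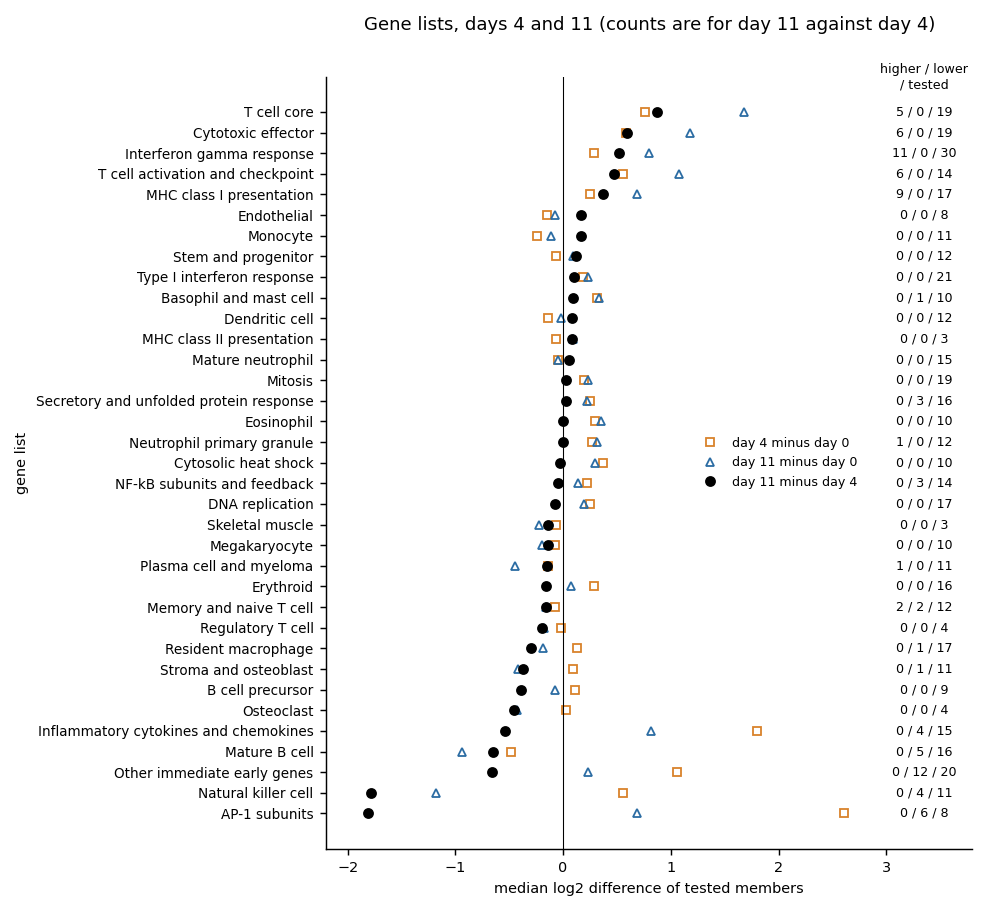
Median log2 difference of the tested members (x axis) of 35 gene lists (y axis); black circles are day 11 minus day 4, open squares day 4 minus day 0 and open triangles day 11 minus day 0, and the figures at right count members called higher, called lower and tested between days 4 and 11. For day 11 minus day 4, T cell core genes stand highest at 0.87 and AP-1 subunits lowest at -1.81.

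Of the 35 lists, 17 had no member called between days 4 and 11 with limma. They include the mature neutrophil, monocyte, dendritic cell, eosinophil, erythroid, megakaryocyte, stem and progenitor, DNA replication and mitosis lists beside those named above. Their medians lay between -0.46, for 4 osteoclast genes, and 0.17, for monocyte and endothelial genes. Of the 250 called genes 80 were on a list and 170 on none.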

How the data were processed

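Total RNA of 12 marrow samples was sequenced after stranded mRNA library preparation from RNA with high integrity, per the labels' protocols. The submitters' processing notes list the build GRCm38 and the tools limma, STAR 2.3.0, featureCounts 1.4.6 and Subread, with no role for each, and the strand setting of the counting is not given in the sources used here, so antisense and overlapping genes are uncertain. Per the file headers, the deposited values are normalised counts, handled here as a score because they were rounded to whole numbers after a scaling that the headers do not describe. A count model was therefore not used. Depth was estimated from gaps among low whole numbers, assuming 1 factor per sample, with estimates of 16 to 25.2 M reads. No sample pair agreed within counting noise.

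Values were taken as log2(value + 1), genes with at least 10 in at least 3 of 12 samples were kept (14883), and limma 3.58.1 in R 4.3.3 fitted 1 mean per group over all 12 samples with an intensity trend, giving 8 residual and 5.73 prior degrees of freedom. Tests were two-sided with Benjamini-Hochberg adjustment over all genes tested and a threshold of 0.05. Fold changes are on the log2(value + 1) scale, which understates low genes. The procedure was run on simulated data in which genes varied independently, with a set spread and no effect of single samples. That run cannot show how the calls behave where they depend on single samples, as they do here. The members and gene lists were chosen with earlier results of these data known. Of 542 distinct genes written in the lists, 460 were among the deposited genes and 441 were tested. Genes named were the 15 largest rises and falls, the 6 largest of each course, in each list with a call the 4 members of lowest adjusted p, Tnfrsf9, and list members picked by role; others were named after their values were seen, as were the Klra, Apol and immunoglobulin groups. Not every gene that this rule picks is described. Promoter windows came from RefSeq, with 1 window for 7990 tested genes. Alternatives changed the pseudocount, the filter, the scaling, the samples and prior of the fit, sample weights, a depth covariate, a minimum size of change, and left out each sample.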

Additional observations from a re-analysis of the deposited data

Results flagged for a closer look

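Btg2, an antiproliferative immediate early gene, and Tsc22d3, a glucocorticoid-induced gene, were called in opposite directions against untreated marrow at the 2 days, and the difference between the days was itself called. Btg2 was at 4463, 4610 and 5366 normalised counts at day 0, 5880, 6017 and 6269 at day 4 and 3982, 3947 and 3599 at day 11. Every day 4 sample was above and every day 11 sample below the day 0 range, and the log2 difference of day 11 from day 4 was -0.66 ± 0.09 (limma adjusted p = 0.0011). For Tsc22d3 that difference was -1.67 ± 0.20 (adjusted p = 0.000557), and its day 18 values, 4198, 3127 and 4690, overlapped those of day 0. Groups of 3 samples were not screened for a sample far from the others.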

How the results depend on the processing

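The 250 genes called between days 4 and 11 became 141 (58 higher, 83 lower) without an intensity trend, 763 (376 and 387) with sample weights, and 128 (49 and 79) when an absolute log2 difference of at least 1 was required. Leaving out each sample in turn gave 136 to 341 called genes, 52 to 148 higher and 70 to 193 lower. The fewest called and higher genes were without day 11 replicate 1, the fewest lower without day 4 replicate 3, and the most in each count without day 18 replicate 3. Other settings gave 209 to 285. Without an intensity trend the number of called members went from 5 to 0 for T cell core, from 6 to 3 for cytotoxic and for checkpoint genes, from 11 to 6 for the interferon gamma response and from 5 to 1 for mature B cells. The cause was not tested. All 250 kept their direction under every setting tried. Of 91 called genes chosen by the naming rule, 45 kept their call under every setting, and over 2086 pairs of gene and setting 1757 kept it and 329 lost it, 217 of them by leaving out 1 sample. Tnfrsf9, which was not called, changed sign, to -0.02 with sample weights, -0.0 with the depth covariate, -0.18 without day 4 replicate 2 and -0.22 without day 11 replicate 3, and ran from -0.22 to 0.41 over the fits without 1 sample. The 691 genes called at day 4 against day 0 became 416 without a trend, 1817 with sample weights, 67 with the depth covariate and 189 with the minimum size, and 269 to 1089 without 1 sample (day 4 replicate 3, day 18 replicate 3). The 792 at day 11 against day 0 became 521, 1914, 424 and 340 in the same order, and 407 to 1134 without 1 sample (day 11 replicate 1, day 18 replicate 3). With the depth covariate 54 of 80 ended rises, 4 of 12 ended falls and 44 of 62 late rises kept their call between days 4 and 11. No paired analysis was possible because the labels give no replicate numbers that the groups share. Genes of few counts are limited by depth, and at an unadjusted p under 0.05 there were 1750 genes.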

Other observations

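Genes of the circadian clock, a group chosen after its values were seen, were split at day 11 against day 4. Per1 fell, as did Ciart, a clock repressor, from 107, 99 and 133 to 46, 47 and 25 normalised counts (log2 difference -1.54 ± 0.26, limma adjusted p = 0.00624), and Nfil3, from 927, 722 and 856 to 600, 670 and 554 (adjusted p = 0.0354, and 0.17 without day 11 replicate 3, with a call that held in 6 of 12 fits without 1 sample). Bhlhe40, at 981, 916 and 1243 and then 693, 686 and 811, did not pass (adjusted p = 0.0508). Its relative Bhlhe41, at 27, 47 and 35 and then 16, 5 and 19, did not overlap between the days and did not pass (log2 difference -1.52 ± 0.39, adjusted p = 0.0713). Per2, Per3, Cry1, Cry2, Arntl, Clock, Nr1d1, Nr1d2, Tef, Hlf and Dbp overlapped between the days, with log2 differences of -0.36 to 0.12. Per1 at day 18 was 1456, 1128 and 1597, above all samples of days 0 and 11.

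Replication-dependent histone genes were among the ended rises. H1f2, a linker histone gene, went from 3821, 3740 and 3698 to 1886, 1915 and 1187 (log2 difference -1.21 ± 0.18, limma adjusted p = 0.00328). Its day 11 level was not called against the 937, 1192 and 1282 of day 0 (adjusted p = 0.124). H2bc8, a core histone gene, went from 660, 632 and 830 to 399, 331 and 283 (log2 difference -1.07 ± 0.19, adjusted p = 0.0105, and 0.0647 without day 4 replicate 3). At day 11 H2bc8 was still above the 72, 78 and 112 of day 0 (log2 difference 1.95, adjusted p = 4.72e-05). Of 17 DNA replication genes none was called in limma, with a median log2 difference of -0.08.

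IgG heavy chain genes varied between samples of 1 day. Ighg3 was at 52, 75 and 8 at day 4 and 1475, 68 and 347 at day 11, with day 11 replicate 1 far above the others (adjusted p = 0.132). Ighg2b was at 11021, 754 and 8985 and then at 1874, 1556 and 1701, with day 4 replicate 2 far below its group (adjusted p = 0.551).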
